A study of Mus musculus with 14 samples.

Results

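Mitochondria make only a few of their proteins, and the genes described here encode the machinery that brings in, folds and clears the rest. They were all protein-coding genes of the deposited table whose mouse symbol begins with Timm or Tomm, without Timmdc1, together with a named set of chaperone, peptidase and protease genes. The rule found 43 genes among 55471 in the table, of which 21897 code for protein. By role, 10 with a Tomm symbol were grouped as the outer membrane translocase and its receptors. That group takes in Tomm34, a cytosolic cochaperone that is not part of the channel. Another 7 are small Tim chaperones, 2 act in oxidative folding and outer membrane insertion, and 2 form the carrier translocase. A further 11 make up the presequence translocase and its motor, 2 the processing peptidase, 3 the matrix chaperones and 6 the proteases.

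RNA was sequenced from brown adipose tissue (BAT), the fat depot that burns lipid for heat, of male mice 10 weeks old. The groups were adipocyte-specific CLSTN3B knockouts at 4 °C (AdC3KO, 4 libraries), WT at 4 °C (4 libraries), AdC3KO at 30 °C (3 libraries) and WT at 30 °C (3 libraries). All mice had spent 2 weeks at 30 °C, which is thermoneutral for a mouse, and the 4 °C groups were then in the cold for 6 h. The sources used here name neither the promoter that drives the adipocyte deletion nor the strain, and do not say whether each library is 1 animal. The p-values below therefore rest on the spread between libraries, which may be technical.

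Proteins made in the cytosol reach mitochondria through the TOM channel of the outer membrane. From there, proteins with a cleavable presequence pass the TIM23 channel, pulled by a motor around mitochondrial Hsp70, and the processing peptidase removes the presequence. Metabolite carriers, such as uncoupling protein and the ADP/ATP carriers that brown fat holds in large amounts, are escorted by small Tim chaperones to the TIM22 translocase. Small cysteine-rich proteins are trapped by oxidative folding between the membranes, while the Hsp60 and Hsp10 pair folds matrix proteins and Lon, ClpXP and the AAA proteases degrade damaged ones.

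Libraries held 19.9 to 29.0 M gene counts (M, units of 1e6). Levels below are counts per 1e6 (CPM) scaled by the TMM method of edgeR, and every adjusted p for a gene comes from edgeR's quasi-likelihood F-test with Benjamini-Hochberg adjustment over all 15949 genes tested, called at 0.05. The knockout was visible at its own locus, Clstn3 (ENSMUSG00000008153), where the annotation joins Clstn3 and Clstn3b. Clstn3 had mean levels at 4 °C of 65.8 ± 11.9 CPM for AdC3KO and 1109.6 ± 97.4 CPM for WT (SD, n = 4 each), and at 30 °C of 15.8 ± 1.31 CPM for AdC3KO and 207 ± 23.2 CPM for WT (SD, n = 3 each). All 10 brown adipocyte markers checked, Ucp1 and Cidea among them, had counts in every group. Skeletal muscle transcripts stood out in 5 libraries, which were AdC3KO replicate 3 and WT replicate 2 at 4 °C, and AdC3KO replicates 1 and 2 and WT replicate 3 at 30 °C. The summed level of 12 muscle markers was 32.7 to 434 CPM in those 5 and 0.99 to 3.24 CPM in the other 9.

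Of the 43 genes, 40 passed the filter on low counts and were tested. Timm8a2 had 2 counts over all 14 libraries and Tomm20l had 15, each a copy of a small Tim or a receptor gene with little RNA here. Tomm6, a small TOM subunit, had 1 count, but 84.2% of its exon bases are shared with other annotated genes, so its level cannot be read from this table. Exon overlap with a neighbour is also large for Tomm40l (64.3%, with Nr1i3 on the opposite strand) and Htra2 (43.7%, with Aup1 and Loxl3). Smaller shares were those of Timm10b (22.1%), Pmpca (20.4%), Pam16 (18.7%), Timm8b (15.6%) and Grpel1 (11.6%). Tomm40l, Pmpca, Timm8b and Grpel1 also enter the count ratios below. The strand setting of the counting is not given, so reads of such neighbours could be left out of or added to those genes. Copies at least 95% identical held at most 1.18% of a gene's own counts. How reads that fit both a gene and its copy were counted is not given, so this share cannot show how many reads a gene lost. Timm8a1, for example, matched the pseudogene Gm9797 at 100% over 612 bases.

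Promoter windows are shown for 4 of the 8 genes with the largest cold rise in WT, to give the letters of the heat shock element, the E-box and the ETS sequence where they occur. The 250 bases before the start site come from RefSeq on GRCm38.p6, are written 5′ to 3′ on the gene's strand, and end at the base before the start site.
Hspe1 (chr1:55087898-55088147, plus strand): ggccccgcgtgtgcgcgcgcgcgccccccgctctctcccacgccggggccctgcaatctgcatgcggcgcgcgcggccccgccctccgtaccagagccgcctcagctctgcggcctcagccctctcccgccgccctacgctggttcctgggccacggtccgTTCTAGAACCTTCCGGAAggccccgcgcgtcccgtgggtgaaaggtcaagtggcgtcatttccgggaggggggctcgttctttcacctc
Timm9 (chr12:71136676-71136925, minus strand): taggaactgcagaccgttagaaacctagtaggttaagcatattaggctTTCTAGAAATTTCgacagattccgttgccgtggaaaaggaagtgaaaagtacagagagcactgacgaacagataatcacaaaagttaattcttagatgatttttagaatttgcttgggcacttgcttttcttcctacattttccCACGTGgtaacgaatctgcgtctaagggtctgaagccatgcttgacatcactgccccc
Timm8a1 (chrX:134541671-134541920, minus strand): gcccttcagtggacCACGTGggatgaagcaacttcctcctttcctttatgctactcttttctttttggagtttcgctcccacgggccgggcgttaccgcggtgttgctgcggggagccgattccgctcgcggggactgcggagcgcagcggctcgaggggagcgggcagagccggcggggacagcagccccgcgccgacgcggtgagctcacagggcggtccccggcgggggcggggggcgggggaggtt
Tomm70a (chr16:57121464-57121713, plus strand): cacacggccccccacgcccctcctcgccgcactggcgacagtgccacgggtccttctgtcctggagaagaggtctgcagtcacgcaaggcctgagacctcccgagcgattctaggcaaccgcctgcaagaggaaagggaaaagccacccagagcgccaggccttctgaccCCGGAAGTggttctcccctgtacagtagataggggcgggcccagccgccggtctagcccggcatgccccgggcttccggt
Capitals mark matches to the searched motifs. In the Hspe1 window, which lies within the annotated span of Hspd1 on the other strand, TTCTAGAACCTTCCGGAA holds 2 overlapping heat shock elements, at bases 89 to 77 and 84 to 72 before the start. In the Timm9 window the heat shock element lies at bases 202 to 190 and the E-box CACGTG at bases 58 to 53. Timm8a1 has the E-box at bases 236 to 231, and Tomm70a has the ETS sequence CCGGAAGT at bases 80 to 73. These distances count from the RefSeq start, which for all 4 genes lies within the annotated span of the gene. For Timm8a1 that span reaches to 134541865, so most of its window lies inside the annotated gene, while its E-box lies outside it.

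A window was found for 36 of the 43 genes and for 16512 protein-coding genes in all, and 7 motifs chosen with the cold values known were searched on both strands. The heat shock element was taken as 3 triplets that alternate between GAA and TTC, with any 2 bases between neighbours. It was in 2 of the 36 windows, those of Hspe1 and Timm9, and in 0.357% of all windows. The NRF1 sequence, GCGC, any base and TGCGC, was in 6 of 36 windows, those of Chchd4, Dnaja3, Hspd1, Pam16, Tomm20 and Spg7, against 5.52% of all. The E-box was in 6 of 36, those of Hspd1, Lonp1, Timm8a1, Timm9, Tomm20 and Tomm20l, against 6.80% of all, and the ETS sequence in 5 of 36 against 4.05%. The ERR sequence TNAAGGTCA was in 1 window, that of Timm8b, against 0.957% of all. Neither the CRE TGACGTCA (2.07% of all) nor the C/EBP-ATF sequence TGATGNAAT (0.684% of all) was in any of the 36. A match describes letters in a window and says nothing on binding.

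After 6 h at 4 °C most of these genes had more RNA than at 30 °C, in both genotypes. In AdC3KO 27 of the 40 rose, against 31.0% of all tested genes, and 6 fell, against 32.1% of all. In WT 27 of the 40 rose, against 30.6% of all tested genes, and 5 fell, against 30.8% of all. The 27 that rose were the same genes in both genotypes, and the 5 that fell in WT also fell in AdC3KO. Libraries did not overlap between temperatures for 31 of the 40 in AdC3KO, against 64.1% of all tested genes. In WT that held for 32 of the 40, against 60.3% of all. Median log2 fold changes over the 40 were 0.52 in AdC3KO and 0.54 in WT, while those over all tested genes were −0.06 in AdC3KO and −0.03 in WT. With bulk tissue, a change in the number of cells of a type and a change in RNA per cell cannot be told apart.

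These counts moved with the scaling of the libraries. With upper-quartile scaling, which shifts the median over all genes to −0.29 in AdC3KO and −0.27 in WT, 22 members were higher and 6 lower in AdC3KO, and 20 were higher and 7 lower in WT. That scaling ended the calls of Grpel2 (0.22), Pmpcb (0.19), Timm44 (0.02), Timm50 (0.11) and Tomm22 (0.09) in AdC3KO. In WT it ended those of Pmpca (0.12), Pmpcb (0.07), Timm8b (0.33), Timm29 (0.14), Timm44, Timm50 (0.01) and Tomm22 (0.08), and Dnajc19 (−0.55) and Timm17b (−0.36) gained a call as lower. Over all genes that scaling called 3737 higher and 6542 lower in AdC3KO, against 4937 and 5113 with TMM, and 3640 higher and 6415 lower in WT, against 4879 and 4908 with TMM. Without the 5 libraries with muscle transcripts, which leaves a single AdC3KO library at 30 °C that is taken to vary like the other groups, 20 members were higher and 5 lower in AdC3KO, and 24 were higher and 3 lower in WT. Over all 16950 genes tested in that fit, 3310 were higher and 3279 lower in AdC3KO, and 4128 were higher and 3906 lower in WT, so calls were fewer over the whole table as well. In AdC3KO the lost calls were those of Timm50 (log2 fold change 0.35), Tomm40l (−0.53), Grpel2 (0.40), Tomm40 (0.44), Timm8b (0.49), Pmpcb (0.21), Timm44 (0.13) and Tomm22 (0.12). In WT they were those of Tomm22 (0.32), Tomm34 (−0.42), Timm50 (0.28), Pmpcb (0.27) and Tomm40l (−0.46). The estimates of Timm50 and Tomm40l in AdC3KO and of Timm50, Tomm34 and Tomm22 in WT were thus about as large as with all libraries or larger, while those of Tomm22, Timm44 and Pmpcb in AdC3KO were less than 0.5 times as large.

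**Figure D1:**
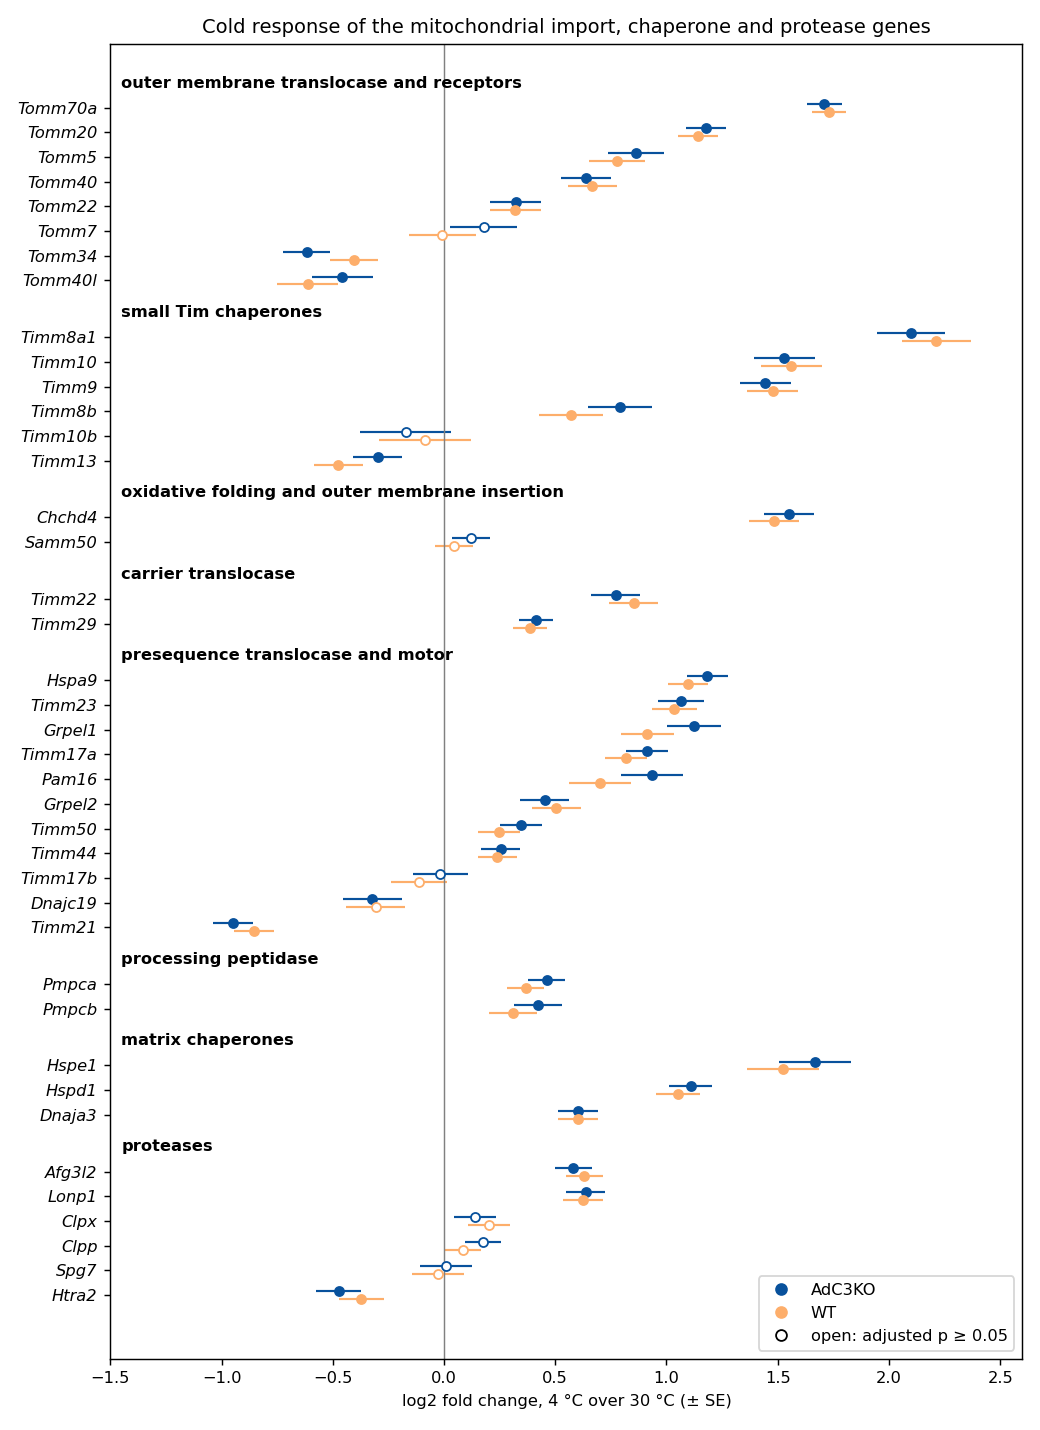
Log2 fold change at 4 °C over 30 °C (x axis, ± SE) of the 40 tested genes, grouped by role, in AdC3KO (blue, upper) and WT (orange, lower), with open points for adjusted p of 0.05 or more. In both genotypes 27 genes lie right of 0 with filled points, led by Timm8a1 and Tomm70a, and Timm21 lies furthest left.

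Among the 8 tested genes with a Tomm symbol, 5 rose and 2 fell, in AdC3KO and in WT alike. Those that fell were Tomm40l and Tomm34, of which Tomm34 acts in the cytosol and is not part of the channel. Over all tested genes, 31.0% rose and 32.1% fell in AdC3KO, and 30.6% rose and 30.8% fell in WT. The 2 largest rises were those of receptors. Tomm70a, the receptor that takes carrier precursors from cytosolic Hsp70 and Hsp90, measured 277, 291, 276 and 277 CPM in AdC3KO and 286, 274, 276 and 249 CPM in WT at 4 °C, against 85.2, 82.5 and 89.3 CPM in AdC3KO and 77.7, 84.3 and 83.3 CPM in WT at 30 °C. Every 4 °C library was above every 30 °C library, with a log2 fold change of 1.71 in AdC3KO (SE 0.08, adjusted p = 8.85e-11) and 1.73 in WT (SE 0.08, adjusted p = 8.55e-11). Tomm20, the receptor for presequences, measured 152, 165, 173 and 161 CPM in AdC3KO and 177, 152, 151 and 151 CPM in WT at 4 °C, against 68.4, 71.8 and 75.3 CPM in AdC3KO and 64.6, 73.1 and 76.6 CPM in WT at 30 °C. Its groups did not overlap between temperatures either, and the log2 fold change was 1.18 in AdC3KO (SE 0.09, adjusted p = 1.26e-08) and 1.14 in WT (SE 0.09, adjusted p = 1.91e-08). Tomm22, the central receptor that joins the others to the channel, rose by a log2 fold change of 0.32 in AdC3KO (SE 0.11, adjusted p = 0.0216) and 0.32 in WT (SE 0.11, adjusted p = 0.0238). Its AdC3KO libraries overlapped between temperatures (68.4 to 85.6 CPM at 4 °C, against 50.3 to 70.6 CPM at 30 °C).

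Tomm40, the channel itself, measured 85.8, 95.9, 102 and 84.5 CPM in AdC3KO and 107, 87.2, 84.4 and 83.2 CPM in WT at 4 °C, against 52.5, 59.7 and 65.4 CPM in AdC3KO and 51.3, 62.2 and 57.3 CPM in WT at 30 °C. WT replicate 1 was the highest of the 4 °C libraries, and no 4 °C library reached down to the 30 °C range. The log2 fold change of Tomm40 was 0.64 in AdC3KO (SE 0.11, adjusted p = 0.000109) and 0.67 in WT (SE 0.11, adjusted p = 7.69e-05). Its paralogue Tomm40l went the other way and measured 12.4, 12.5, 15.2 and 16.1 CPM in AdC3KO and 15.3, 10.6, 11.8 and 12.6 CPM in WT at 4 °C, against 19.7, 18.6 and 19.6 CPM in AdC3KO and 16.6, 19.6 and 21.5 CPM in WT at 30 °C. The temperatures did not overlap in either genotype, and the log2 fold change was −0.46 in AdC3KO (SE 0.14, adjusted p = 0.00805) and −0.61 in WT (SE 0.14, adjusted p = 0.00107). Most of its exon bases are shared with Nr1i3, which itself had 2 counts over the 14 libraries. Of the small subunits that stabilise the channel, Tomm5 rose by a log2 fold change of 0.86 in AdC3KO (SE 0.13, adjusted p = 1.7e-05) and 0.78 in WT (SE 0.13, adjusted p = 5.04e-05), while Tomm7 had log2 fold changes of 0.18 in AdC3KO and −0.01 in WT and passed the test in neither.

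Tomm34, a cochaperone of Hsp70 and Hsp90 in the cytosol, carries the Tomm name but is not part of the channel. It measured 9.92, 10.3, 10.2 and 9.57 CPM in AdC3KO and 9.19, 10.4, 11.9 and 11.8 CPM in WT at 4 °C, against 15.3, 15.1 and 15.6 CPM in AdC3KO and 14.8, 14.5 and 13.7 CPM in WT at 30 °C. Every 4 °C library was below every 30 °C library, and the log2 fold change was −0.62 in AdC3KO (SE 0.11, adjusted p = 0.000108) and −0.40 in WT (SE 0.11, adjusted p = 0.0041).

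**Figure D2:**
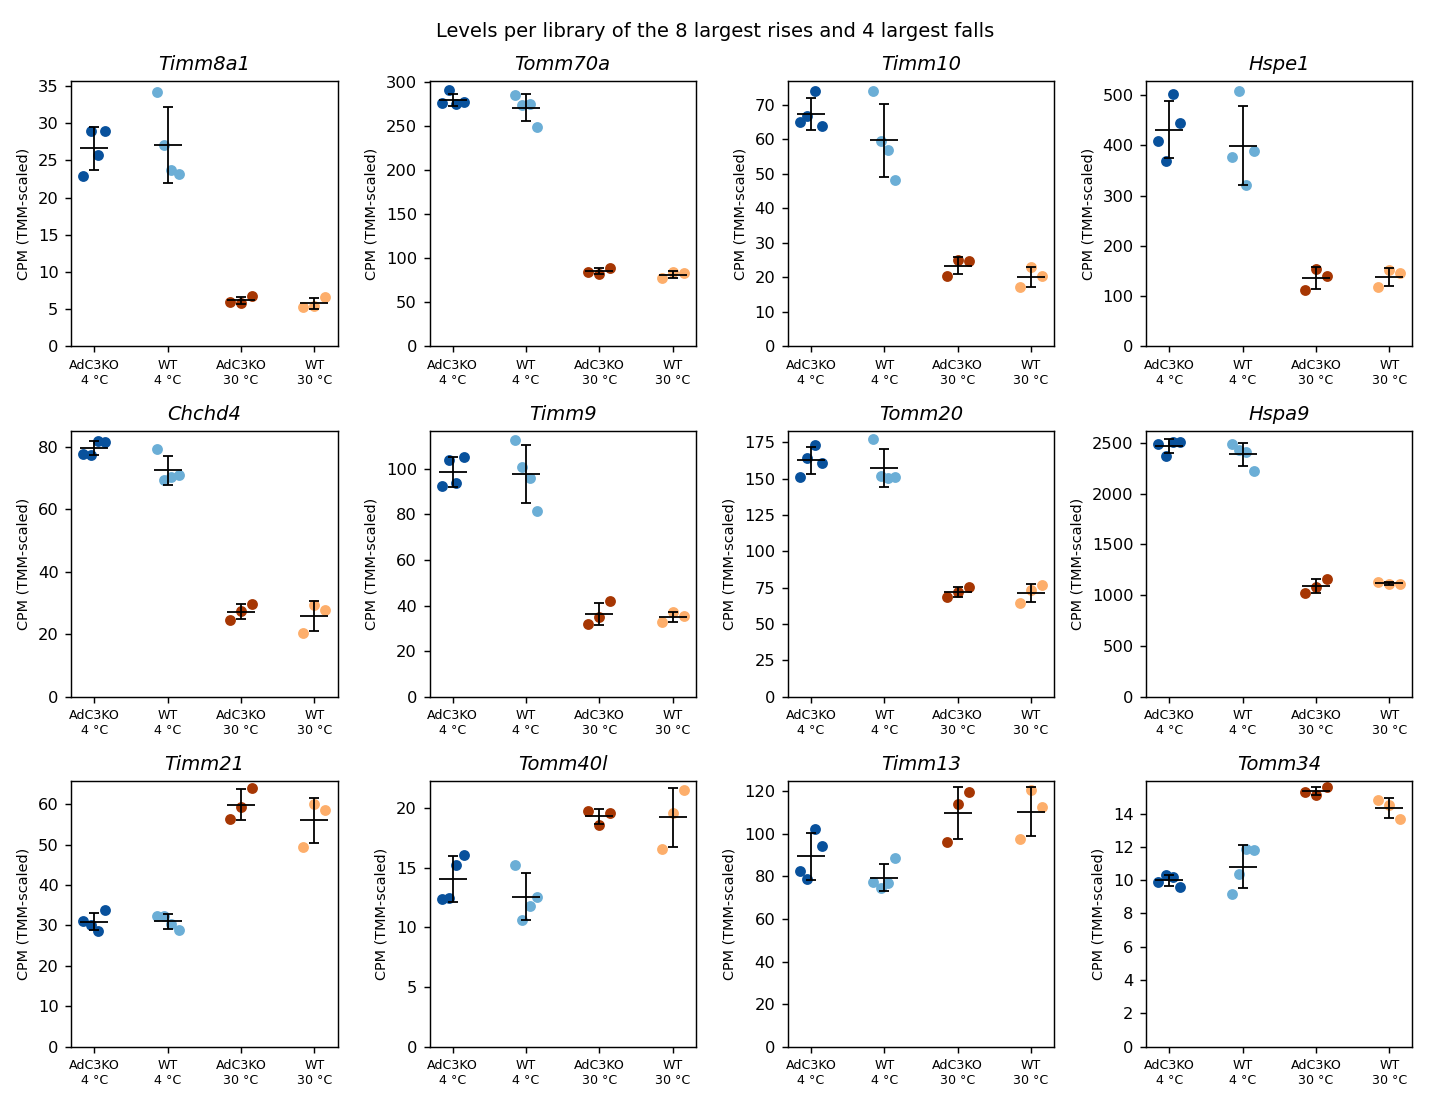
CPM with TMM scaling (y axes, from 0) in each library, by group on the x axis, for the 8 members that rose most and the 4 that fell most in WT at 4 °C, with horizontal bars for means and whiskers for SD. For the 8 rises the groups at 4 °C lie wholly above those at 30 °C, and for Timm21, Tomm40l and Tomm34 wholly below, while Timm13 overlaps in AdC3KO. Of all tested genes, 64.1% in AdC3KO and 60.3% in WT did not overlap between temperatures.

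Among the small Tim chaperones of the intermembrane space, 4 of the 6 tested rose in each genotype and 1 fell. Shares of all tested genes were 31.0% higher and 32.1% lower in AdC3KO, and 30.6% higher and 30.8% lower in WT. Timm8a1, which with Timm13 forms one of the small Tim complexes, is an X-linked gene (ENSMUSG00000048007, X from 134537256 to 134541865, minus strand) and had the largest rise of all 40 in both genotypes. It measured 22.9, 28.9, 25.7 and 28.9 CPM in AdC3KO and 34.2, 27.1, 23.6 and 23.1 CPM in WT at 4 °C, against 6.02, 5.84 and 6.76 CPM in AdC3KO and 5.30, 5.43 and 6.69 CPM in WT at 30 °C. Every 4 °C library was above every 30 °C library, at 4.28-fold in AdC3KO and 4.64-fold in WT, and the log2 fold change was 2.10 in AdC3KO (SE 0.15, adjusted p = 9.32e-09) and 2.21 in WT (SE 0.16, adjusted p = 6.3e-09). Timm9 and Timm10 form the complex that escorts carriers, and they rose side by side. Timm9 measured 92.3, 104, 94.0 and 105 CPM in AdC3KO and 113, 101, 96.1 and 81.6 CPM in WT at 4 °C, against 32.0, 35.1 and 41.8 CPM in AdC3KO and 32.7, 37.2 and 35.3 CPM in WT at 30 °C. Timm10 measured 65.0, 66.8, 74.0 and 63.9 CPM in AdC3KO and 73.9, 59.6, 57.0 and 48.2 CPM in WT at 4 °C, against 20.5, 24.9 and 24.6 CPM in AdC3KO and 17.2, 22.9 and 20.4 CPM in WT at 30 °C. The log2 fold change of Timm9 was 1.44 in AdC3KO (SE 0.11, adjusted p = 2.21e-08) and 1.48 in WT (SE 0.12, adjusted p = 1.94e-08). That of Timm10 was 1.53 in AdC3KO (SE 0.14, adjusted p = 7.54e-08) and 1.56 in WT (SE 0.14, adjusted p = 6.97e-08).

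Timm8b, the paralogue of Timm8a1, measured 31.7, 29.5, 41.0 and 40.8 CPM in AdC3KO and 34.1, 33.6, 33.5 and 32.0 CPM in WT at 4 °C, against 18.2, 19.7 and 24.0 CPM in AdC3KO and 22.2, 26.6 and 18.5 CPM in WT at 30 °C. It rose by a log2 fold change of 0.79 in AdC3KO (SE 0.14, adjusted p = 0.000163) and 0.57 in WT (SE 0.14, adjusted p = 0.00259). Timm13, the partner of Timm8a1, fell, and measured 82.4, 78.8, 102 and 94.2 CPM in AdC3KO and 77.6, 74.4, 77.0 and 88.8 CPM in WT at 4 °C, against 96.1, 114 and 119.8 CPM in AdC3KO and 97.8, 121 and 113 CPM in WT at 30 °C. The log2 fold change was −0.30 in AdC3KO (SE 0.11, adjusted p = 0.0261) and −0.47 in WT (SE 0.11, adjusted p = 0.00137). In AdC3KO the highest 4 °C library (102 CPM) lay above the lowest 30 °C library (96.1 CPM), and in WT the temperatures did not overlap. Timm10b, which ties the small Tims to the carrier translocase, was the least abundant tested member, with group means of 3.31 to 3.98 CPM, and passed the test in neither genotype.

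Chchd4, the oxidoreductase known as Mia40 that oxidises the small Tims as they arrive, measured 77.7, 77.5, 81.8 and 81.6 CPM in AdC3KO and 79.3, 69.4, 70.4 and 71.0 CPM in WT at 4 °C, against 24.7, 27.3 and 29.5 CPM in AdC3KO and 20.5, 29.5 and 27.7 CPM in WT at 30 °C. Its log2 fold change was 1.55 in AdC3KO (SE 0.11, adjusted p = 7.58e-09) and 1.48 in WT (SE 0.11, adjusted p = 1.32e-08), without overlap between temperatures. Samm50, which inserts barrel proteins such as the TOM channel into the outer membrane, had mean levels at 4 °C of 283 ± 18.8 CPM for AdC3KO and 274 ± 16.6 CPM for WT (SD, n = 4 each), and at 30 °C of 259.5 ± 22.0 CPM for AdC3KO and 265 ± 9.02 CPM for WT (SD, n = 3 each). Its log2 fold change of 0.12 in AdC3KO (95% interval −0.05 to 0.29) and 0.05 in WT (−0.12 to 0.21) was not called.

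Both measured genes of the carrier translocase rose, against 31.0% of all tested genes in AdC3KO and 30.6% in WT. The channel gene Timm22 rose by a log2 fold change of 0.77 in AdC3KO (SE 0.11, adjusted p = 1.3e-05) and 0.85 in WT (SE 0.11, adjusted p = 4.99e-06). Timm29, a subunit of the complex first described in human cells, measured 64.4, 63.0, 64.4 and 66.8 CPM in AdC3KO and 57.4, 57.6, 60.5 and 65.1 CPM in WT at 4 °C, against 51.1, 49.5 and 44.9 CPM in AdC3KO and 43.9, 47.6 and 46.8 CPM in WT at 30 °C. The 2 temperatures did not overlap in either genotype, with a log2 fold change of 0.41 in AdC3KO (SE 0.08, adjusted p = 0.000176) and 0.38 in WT (SE 0.08, adjusted p = 0.000375). With upper-quartile scaling the call of Timm29 was lost in WT (0.14).

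In the presequence translocase and its motor, 8 of the 11 genes rose in each genotype, while 2 fell in AdC3KO and 1 in WT. Of all tested genes, 31.0% rose and 32.1% fell in AdC3KO, and 30.6% rose and 30.8% fell in WT. Timm23, the channel, had mean levels at 4 °C of 270.3 ± 24.0 CPM for AdC3KO and 256 ± 22.4 CPM for WT (SD, n = 4 each), and at 30 °C of 129 ± 13.3 CPM for AdC3KO and 125 ± 8.43 CPM for WT (SD, n = 3 each). Timm23 rose by a log2 fold change of 1.07 in AdC3KO (SE 0.10, adjusted p = 1.7e-07) and 1.03 in WT (SE 0.10, adjusted p = 2.53e-07). Timm17a, one of its alternative channel partners, measured 177, 182, 195 and 191 CPM in AdC3KO and 185, 165, 178 and 179 CPM in WT at 4 °C, against 89.0, 94.9 and 113 CPM in AdC3KO and 98.1, 110.2 and 92.8 CPM in WT at 30 °C. That was a rise by a log2 fold change of 0.91 in AdC3KO (SE 0.09, adjusted p = 4.02e-07) and 0.82 in WT (SE 0.09, adjusted p = 1.43e-06). The other partner, Timm17b, measured 18.6, 16.2, 20.6 and 23.2 CPM in AdC3KO and 20.1, 16.3, 19.2 and 17.6 CPM in WT at 4 °C, against 18.9, 19.7 and 20.9 CPM in AdC3KO and 19.4, 22.0 and 17.98 CPM in WT at 30 °C. Here all groups overlapped, and the log2 fold changes of −0.02 in AdC3KO (95% interval −0.26 to 0.23) and −0.11 in WT (−0.36 to 0.13) were not called. With upper-quartile scaling Timm17b was called lower in WT (−0.36, edgeR adjusted p = 0.0188).

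Hspa9, the mitochondrial Hsp70 that drives the motor, had the highest CPM of the 43 genes and measured 2493, 2371, 2512 and 2509 CPM in AdC3KO and 2484, 2428, 2412 and 2223 CPM in WT at 4 °C, against 1022, 1082 and 1159 CPM in AdC3KO and 1129, 1108 and 1109.7 CPM in WT at 30 °C. All 4 °C libraries lay above all 30 °C libraries, with a log2 fold change of 1.18 in AdC3KO (SE 0.09, adjusted p = 1.52e-08) and 1.10 in WT (SE 0.09, adjusted p = 3.64e-08). Its nucleotide exchange factors rose too. Grpel1 measured 293, 316, 359 and 312 CPM in AdC3KO and 333, 282, 308 and 255 CPM in WT at 4 °C, against 129, 140.0 and 172 CPM in AdC3KO and 151, 174 and 144 CPM in WT at 30 °C. Grpel2 measured 39.0, 33.6, 32.1 and 42.0 CPM in AdC3KO and 34.9, 36.3, 40.5 and 32.7 CPM in WT at 4 °C, against 26.8, 24.8 and 28.9 CPM in AdC3KO and 23.7, 26.1 and 26.5 CPM in WT at 30 °C. Neither overlapped between temperatures within a genotype, which also held for 64.1% of all tested genes in AdC3KO and 60.3% in WT. The log2 fold change of Grpel1 was 1.12 in AdC3KO (SE 0.12, adjusted p = 6.89e-07) and 0.91 in WT (SE 0.12, adjusted p = 6.51e-06). That of Grpel2 was 0.45 in AdC3KO (SE 0.11, adjusted p = 0.00187) and 0.51 in WT (SE 0.11, adjusted p = 0.000836).

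Pam16, which restrains the J protein of the motor, measured 42.4, 43.7, 50.7 and 39.2 CPM in AdC3KO and 40.4, 39.9, 35.8 and 37.6 CPM in WT at 4 °C, against 19.5, 22.8 and 26.8 CPM in AdC3KO and 19.3, 29.2 and 22.3 CPM in WT at 30 °C. It rose by a log2 fold change of 0.93 in AdC3KO (SE 0.14, adjusted p = 2.34e-05) and 0.70 in WT (SE 0.14, adjusted p = 0.000376). Dnajc19, the J protein that Pam16 holds, did not rise with it, and had log2 fold changes of −0.32 in AdC3KO (SE 0.13, adjusted p = 0.0444) and −0.31 in WT (SE 0.13, adjusted p = 0.0567). That fall in AdC3KO was called with overlapping libraries, and its call was lost on leaving out any of 10 single libraries. The presequence receptor Timm50 rose by a log2 fold change of 0.35 in AdC3KO (SE 0.09, adjusted p = 0.00456) and 0.25 in WT (SE 0.09, adjusted p = 0.0322). Timm44, which tethers Hsp70 to the channel, rose by a log2 fold change of 0.25 in AdC3KO (SE 0.09, adjusted p = 0.0189) and 0.24 in WT (SE 0.09, adjusted p = 0.0263). With upper-quartile scaling the direction of Timm44 in WT turned to −0.00214, and neither gene was called in either genotype.

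Timm21, which links the presequence translocase to the TOM complex and to the respiratory chain, had the largest fall of the 40. It measured 31.2, 30.0, 28.7 and 33.8 CPM in AdC3KO and 32.4, 32.4, 30.4 and 28.8 CPM in WT at 4 °C, against 56.3, 59.2 and 63.9 CPM in AdC3KO and 49.5, 59.9 and 58.5 CPM in WT at 30 °C. It was 1.93-fold lower in AdC3KO and 1.81-fold lower in WT at 4 °C, with no overlap between temperatures. The log2 fold change was −0.95 in AdC3KO (SE 0.09, adjusted p = 1.46e-07) and −0.85 in WT (SE 0.09, adjusted p = 5.52e-07).

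The processing peptidase is a pair of subunits, of which Pmpcb holds the catalytic site. Pmpca measured 101, 108, 111 and 111 CPM in AdC3KO and 114, 94.8, 116 and 98.4 CPM in WT at 4 °C, against 79.5, 74.2 and 81.0 CPM in AdC3KO and 82.3, 84.2 and 79.5 CPM in WT at 30 °C. Pmpcb measured 173, 176, 207 and 204 CPM in AdC3KO and 203, 171, 197 and 164 CPM in WT at 4 °C, against 137, 129 and 159 CPM in AdC3KO and 150.1, 159.6 and 135 CPM in WT at 30 °C. Both rose without overlap between temperatures. Shares over all tested genes were 31.0% higher in AdC3KO and 30.6% in WT, and 64.1% without overlap in AdC3KO and 60.3% in WT. Pmpca had a log2 fold change of 0.46 in AdC3KO (SE 0.08, adjusted p = 0.000158) and 0.37 in WT (SE 0.08, adjusted p = 0.00123). Pmpcb had one of 0.42 in AdC3KO (SE 0.11, adjusted p = 0.00274) and 0.31 in WT (SE 0.11, adjusted p = 0.0192). With upper-quartile scaling Pmpcb was called in neither genotype (0.19 in AdC3KO and 0.07 in WT), and Pmpca not in WT (0.12). The WT call of Pmpcb was also lost with no filter on low counts (0.22) and with a filter at 5 CPM (0.21).

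All 3 matrix chaperones rose in both genotypes, against 31.0% of all tested genes in AdC3KO and 30.6% in WT. Hspd1 (Hsp60, ENSMUSG00000025980, chromosome 1 from 55077835 to 55088243, minus strand) and Hspe1 (Hsp10, ENSMUSG00000073676, chromosome 1 from 55088132 to 55091307, plus strand) are neighbours that start head to head and share 112 exon bases on opposite strands. Hspe1, the lid of the folding chamber, measured 409, 368, 503 and 444 CPM in AdC3KO and 377, 508, 321 and 389 CPM in WT at 4 °C, against 112, 154 and 141 CPM in AdC3KO and 118, 152 and 146 CPM in WT at 30 °C. Hspd1, the chamber, measured 1342, 1317, 1434 and 1357 CPM in AdC3KO and 1431, 1393, 1169.8 and 1187 CPM in WT at 4 °C, against 614, 654 and 628 CPM in AdC3KO and 606, 606 and 662 CPM in WT at 30 °C. No library of either gene overlapped between temperatures, which also held for 64.1% of all tested genes in AdC3KO and 60.3% in WT. The log2 fold change of Hspe1 was 1.67 in AdC3KO (SE 0.16, adjusted p = 2.43e-07) and 1.53 in WT (SE 0.16, adjusted p = 6.58e-07). That of Hspd1 was 1.11 in AdC3KO (SE 0.10, adjusted p = 6.85e-08) and 1.05 in WT (SE 0.10, adjusted p = 1.28e-07). Dnaja3, a J protein of the matrix, rose by a log2 fold change of 0.60 in AdC3KO (SE 0.09, adjusted p = 2.17e-05) and 0.60 in WT (SE 0.09, adjusted p = 2.39e-05).

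Of the 6 proteases, 2 were higher and 1 lower in each genotype, a share of higher calls near that of all tested genes (31.0% in AdC3KO and 30.6% in WT). Lonp1, the Lon protease of the matrix, had mean levels at 4 °C of 314 ± 30.4 CPM for AdC3KO and 308 ± 21.1 CPM for WT (SD, n = 4 each), and at 30 °C of 202 ± 6.98 CPM for AdC3KO and 199.7 ± 5.46 CPM for WT (SD, n = 3 each). It rose by a log2 fold change of 0.64 in AdC3KO (SE 0.09, adjusted p = 1.22e-05) and 0.62 in WT (SE 0.09, adjusted p = 1.57e-05). Afg3l2, a subunit of the inner membrane AAA protease that faces the matrix, measured 402, 403, 436 and 434 CPM in AdC3KO and 449, 396, 410.3 and 391 CPM in WT at 4 °C, against 283, 273 and 284 CPM in AdC3KO and 244, 273 and 280.0 CPM in WT at 30 °C. That was a rise by a log2 fold change of 0.58 in AdC3KO (SE 0.08, adjusted p = 1.49e-05) and 0.63 in WT (SE 0.08, adjusted p = 6.55e-06). Its partner subunit Spg7 measured 101, 103, 126 and 114 CPM in AdC3KO and 137, 93.0, 122 and 102 CPM in WT at 4 °C, against 109, 106 and 116 CPM in AdC3KO and 119, 119 and 109 CPM in WT at 30 °C. Spg7 did not differ between temperatures beyond its spread, at log2 fold changes of 0.01 in AdC3KO (95% interval −0.22 to 0.24) and −0.03 in WT (−0.25 to 0.20).

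Of the ClpXP protease, the unfoldase Clpx measured 159.9, 168, 182 and 157 CPM in AdC3KO and 195, 146, 174 and 154 CPM in WT at 4 °C, against 155, 154 and 145 CPM in AdC3KO and 141, 147 and 148 CPM in WT at 30 °C. The peptidase Clpp measured 76.8, 75.9, 87.9 and 83.9 CPM in AdC3KO and 74.6, 72.2, 74.6 and 73.6 CPM in WT at 4 °C, against 68.7, 68.0 and 79.0 CPM in AdC3KO and 69.2, 74.0 and 65.5 CPM in WT at 30 °C. Neither passed the test in either genotype. Log2 fold changes were 0.14 in AdC3KO and 0.20 in WT for Clpx. For Clpp they were 0.17 in AdC3KO and 0.08 in WT. Htra2, a serine protease of the intermembrane space, measured 16.2, 14.3, 15.5 and 15.2 CPM in AdC3KO and 16.8, 15.4, 17.4 and 18.6 CPM in WT at 4 °C, against 20.8, 19.8 and 23.1 CPM in AdC3KO and 24.0, 21.4 and 20.9 CPM in WT at 30 °C. Every 4 °C library was below every 30 °C library of the same genotype, with a log2 fold change of −0.47 in AdC3KO (SE 0.10, adjusted p = 0.000663) and −0.37 in WT (SE 0.10, adjusted p = 0.00439). Neighbours share 43.7% of its exon bases.

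Because some of these proteins act in pairs or replace each other, the ratio of their counts was compared within each library, where no scaling between libraries enters. For 8 pairs the log2 ratio at 4 °C minus that at 30 °C was averaged over the genotypes and tested by an exact two-sided permutation of temperature within genotype (n = 4 and 3 libraries in each genotype, 1225 assignments, smallest possible p = 0.000816), with p adjusted over the 8 pairs. The balance shifted in 6 of the 8, each at the smallest possible p (adjusted p = 0.00109 by the exact permutation test). The pairs were chosen with earlier results of these data known. Single genes called between temperatures made up 63.0% of all tested genes in AdC3KO and 61.4% in WT. The share of other gene pairs that shift was not computed, so this count cannot be read as particular to these pairs. Timm17a counts were 8.25 to 11.3 times those of Timm17b in AdC3KO and 9.23 to 10.2 times in WT at 4 °C, against 4.70 to 5.42 times in AdC3KO and 5.02 to 5.16 times in WT at 30 °C, a shift of 0.94. Tomm40 counts were 5.25 to 7.68 times those of Tomm40l in AdC3KO and 6.63 to 8.20 times in WT at 4 °C, against 2.66 to 3.34 times in AdC3KO and 2.67 to 3.18 times in WT at 30 °C, a shift of 1.19. In both pairs the more abundant paralogue by count gained on the other.

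Timm8a1 had fewer counts than Timm8b at 30 °C and came nearer to it in the cold. The ratio was 0.626 to 0.981 in AdC3KO and 0.706 to 1.002 in WT at 4 °C, against 0.281 to 0.331 in AdC3KO and 0.204 to 0.362 in WT at 30 °C, a shift of 1.46. Shifts of the other called pairs were 0.55 for Grpel1 over Grpel2, 0.62 for Afg3l2 over Spg7 and −0.51 for Hspd1 over Hspe1. The Hspd1 to Hspe1 ratio was 2.85 to 3.58 in AdC3KO and 2.74 to 3.80 in WT at 4 °C, against 4.24 to 5.5002 in AdC3KO and 3.99 to 5.15 in WT at 30 °C. Every 4 °C ratio was therefore below every 30 °C ratio, although both genes rose.

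The other 2 pairs did not pass the test. Pmpca over Pmpcb shifted by 0.05 (exact permutation p = 0.292, adjusted p = 0.334) and Clpx over Clpp by 0.03 (exact permutation p = 0.666, adjusted p = 0.666). Without the libraries with muscle transcripts the shift of Pmpca over Pmpcb was 0.15 (exact permutation test, adjusted p = 0.0286), and that of Clpx over Clpp was 0.19 (exact permutation test, adjusted p = 0.05).

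**Figure D3:**
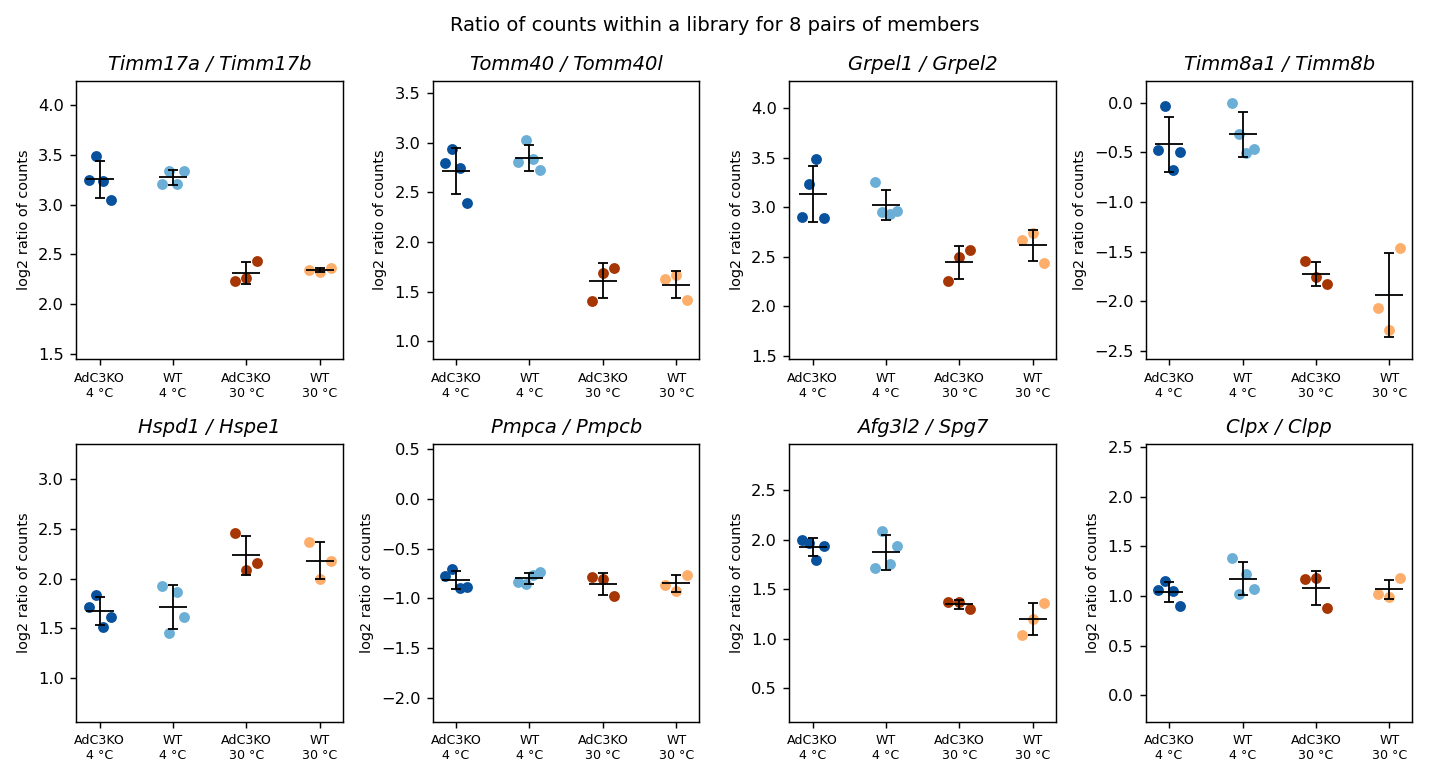
Log2 ratio of the counts of 2 genes in each library (y axes, each spanning the same range), by group on the x axis, with means and SD. The 4 °C groups lie above the 30 °C groups for Timm17a/Timm17b, Tomm40/Tomm40l, Grpel1/Grpel2, Timm8a1/Timm8b and Afg3l2/Spg7, below them for Hspd1/Hspe1, and among them for Pmpca/Pmpcb and Clpx/Clpp.

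Summed over the 43 genes, the machinery took 8511 to 9335 CPM in AdC3KO and 7959 to 9087 CPM in WT at 4 °C, against 4647 to 5223 CPM in AdC3KO and 4751 to 5096 CPM in WT at 30 °C. The temperatures did not overlap. Hspa9 and Hspd1 gave much of that sum. Without them the sums had means at 4 °C of 5028 ± 296 CPM for AdC3KO and 4821 ± 259 CPM for WT (SD, n = 4 each), and at 30 °C of 3210 ± 214 CPM for AdC3KO and 3188 ± 185 CPM for WT (SD, n = 3 each). By role, the presequence translocase and motor had mean sums at 4 °C of 3730 CPM for AdC3KO and 3575 CPM for WT, and at 30 °C of 1896 CPM for AdC3KO and 1922 CPM for WT. The proteases had mean sums at 4 °C of 1107 CPM for AdC3KO and 1091 CPM for WT, and at 30 °C of 837 CPM for AdC3KO and 818 CPM for WT.

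**Figure D4:**
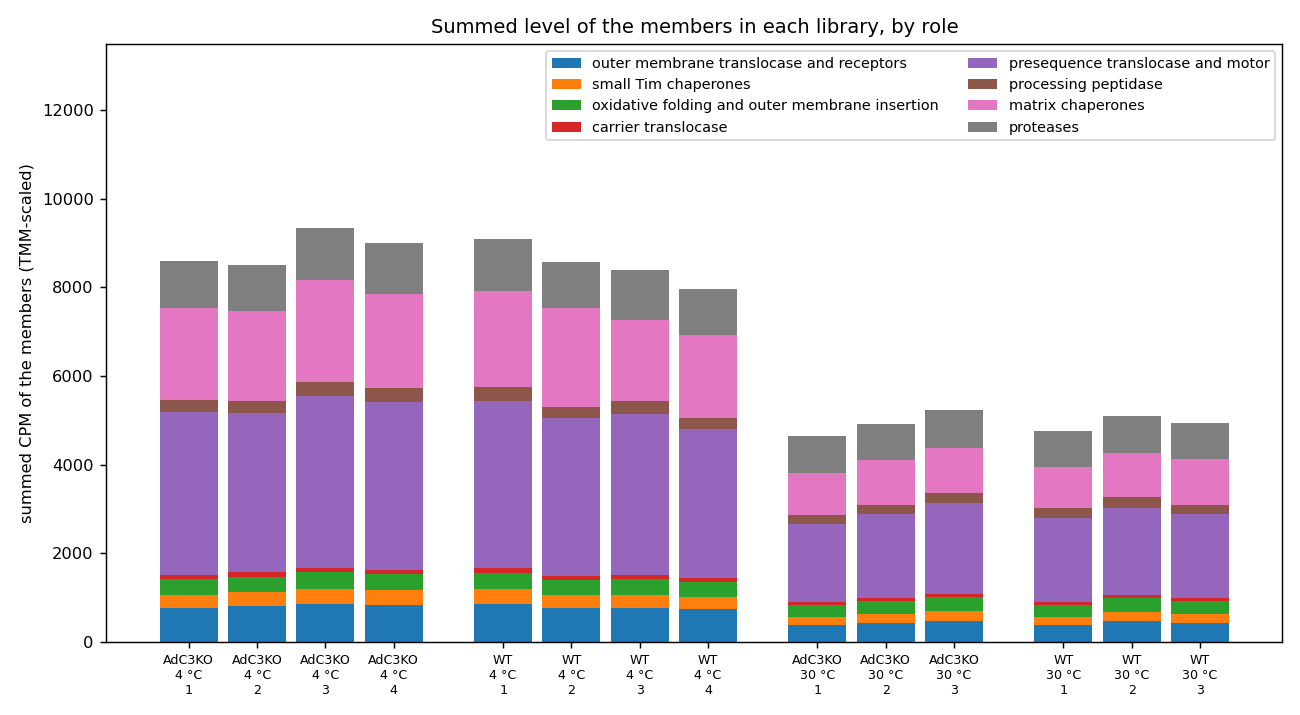
Summed CPM of the members (y axis) in each of the 14 libraries, stacked by role. The 8 libraries at 4 °C reach 7959 to 9335 CPM and the 6 at 30 °C 4647 to 5223 CPM.

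Levels of different genes were compared as CPM per kb of exon. On that scale Hspa9 stood at rank 1, Hspd1 at rank 2 and Hspe1 at rank 3 in all 4 groups. Hspa9 and Hspd1 were at 573 ± 15.6 and 516 ± 19.1 CPM per kb in AdC3KO and at 554 ± 26.3 and 490.2 ± 51.4 CPM per kb in WT at 4 °C (SD, n = 4 each), so that in WT the order of these neighbours was within their spread. Hspe1 followed at 292 ± 38.7 CPM per kb in AdC3KO and 270.5 ± 53.2 CPM per kb in WT at 4 °C (SD, n = 4 each), and Timm23 at 151 ± 13.4 CPM per kb in AdC3KO and 143 ± 12.6 CPM per kb in WT. At 30 °C Timm13 stood at rank 4, with 80.2 ± 8.99 CPM per kb in AdC3KO and 80.5 ± 8.44 CPM per kb in WT (SD, n = 3 each). Its next neighbour there, Timm23, lay within their spread, at 72.3 ± 7.47 CPM per kb in AdC3KO and 69.8 ± 4.72 CPM per kb in WT. At 4 °C Timm13 stood at rank 12 in both genotypes. Timm10 stood at rank 8 in both genotypes at 4 °C and at ranks 18 in AdC3KO and 21 in WT at 30 °C, with a level at 4 °C of 82.7 CPM per kb in AdC3KO and 73.2 CPM per kb in WT. Tomm40l and Timm10b held the lowest tested levels per kb in all groups.

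Spread between libraries of a group was modest for these genes. Median coefficients of variation over the 40 tested genes were 7.90% in AdC3KO and 8.67% in WT at 4 °C, and 8.43% in AdC3KO and 8.55% in WT at 30 °C. The widest was 23.5%, for Tomm7 in AdC3KO at 30 °C.

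Among other genes of the pathway, calls went in both directions. Of 30 partners outside the rule, 12 were higher and 7 lower at 4 °C in AdC3KO, with a median log2 fold change of 0.17, and 13 were higher and 7 lower in WT, with a median of 0.13. Over all tested genes, 31.0% were higher and 32.1% lower in AdC3KO, and 30.6% were higher and 30.8% lower in WT. Dnajc11, a J protein of the inner membrane organising system, rose by a log2 fold change of 1.44 in AdC3KO (SE 0.09, adjusted p = 1.09e-09) and 1.39 in WT (SE 0.09, adjusted p = 1.47e-09). Gfer, the sulfhydryl oxidase that reoxidises Chchd4, rose by a log2 fold change of 0.61 in AdC3KO (SE 0.10, adjusted p = 4.1e-05) and 0.68 in WT (SE 0.10, adjusted p = 1.5e-05). Xpnpep3, a peptidase that trims imported proteins, rose by a log2 fold change of 0.49 in AdC3KO (SE 0.13, adjusted p = 0.00374) and 0.59 in WT (SE 0.13, adjusted p = 0.000998). The largest falls were those of Atp23, a metallopeptidase known in yeast for maturing an ATP synthase subunit, Oma1, the stress-activated protease of the inner membrane, and Hscb, a cochaperone of iron-sulfur cluster assembly. Atp23 had a log2 fold change of −1.97 in AdC3KO (SE 0.32, adjusted p = 6.01e-05) and −2.37 in WT (SE 0.33, adjusted p = 1.19e-05). Oma1 had one of −1.10 in AdC3KO (SE 0.18, adjusted p = 4.83e-05) and −0.87 in WT (SE 0.18, adjusted p = 0.000486). That of Hscb was −0.97 in AdC3KO (SE 0.17, adjusted p = 8.99e-05) and −0.80 in WT (SE 0.17, adjusted p = 0.000603). Atp23 was low throughout, with means at 4 °C of 1.51 CPM for AdC3KO and 1.27 CPM for WT, and at 30 °C of 5.91 CPM for AdC3KO and 6.55 CPM for WT.

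The same counts were taken for 2 further sets of nuclear genes with mitochondrial products. Of 77 tested mitochondrial ribosomal protein genes, 26 rose and 12 fell at 4 °C in AdC3KO (median log2 fold change 0.09), and 22 rose and 18 fell in WT (median 0.06). Of 38 nuclear complex I subunit genes, 5 were higher and 2 lower in AdC3KO (median 0.13), and 2 were higher and 2 lower in WT (median −0.08). The shares over all tested genes were 31.0% higher and 32.1% lower in AdC3KO, and 30.6% higher and 30.8% lower in WT. No test of the difference between these lists was made.

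Some markers of cell types were called between temperatures too, as were 63.0% of all tested genes in AdC3KO and 61.4% in WT. The 10 brown adipocyte markers summed to 28574 to 37439 CPM in AdC3KO and 26854 to 36445 CPM in WT at 4 °C, against 9961 to 13315 CPM in AdC3KO and 10791 to 12606 CPM in WT at 30 °C. Of these 10, 5 rose in each genotype, and 2 fell in AdC3KO and 4 in WT. The 8 endothelial markers summed to 1283 to 1456 CPM in AdC3KO and 1178 to 1305 CPM in WT at 4 °C, against 738 to 851 CPM in AdC3KO and 726 to 964 CPM in WT at 30 °C. Of these 8, 4 rose and 3 fell in each genotype. The 9 macrophage markers summed to 217 to 407 CPM in AdC3KO and 275 to 625 CPM in WT at 4 °C, against 170 to 257 CPM in AdC3KO and 173 to 209 CPM in WT at 30 °C. Of these 9, 3 rose in AdC3KO and 5 in WT, and none fell. No brown adipocyte, endothelial or macrophage marker was at 0 in any group, and Tnnc2 was the only muscle marker at 0, in every group but WT at 30 °C. The part of these cell types in the cold rise was not tested.

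Between the genotypes none of these genes passed the test. At 4 °C none of the 40 was called between AdC3KO and WT, against 0.0502% of all tested genes, and at 30 °C none was called, against 0.0439% of all. The interaction test, on the difference of the cold responses (AdC3KO minus WT), called none of the 40 and none of all tested genes. At an unadjusted p below 0.05, edgeR had 0 of the 40 in each of these comparisons, against 4.8% of all genes at 4 °C, 1.33% at 30 °C and 2.19% in the interaction. DESeq2 also called 0 of the 40. The width of the 95% interval differed between genes. At 4 °C it was narrowest for Tomm70a (−0.09 to 0.18 on the log2 scale) and widest for Timm10b, the tested member with the lowest CPM, which reached down to −0.56. At 30 °C it was also narrowest for Tomm70a (−0.09 to 0.22), as it was for the interaction (−0.23 to 0.19). These intervals are normal limits from the SE and are somewhat narrower than the F-test would give. For each gene, a true difference within its own interval, or somewhat beyond it, remains possible with these libraries.

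At 4 °C the lowest p values of the 40 were those of Clpp, Timm13 and Htra2, whose library values stand above. Clpp was 0.14 higher in AdC3KO (95% interval −0.01 to 0.28, edgeR adjusted p = 0.963), with all 4 AdC3KO libraries above all 4 WT libraries. Timm13 was 0.17 higher in AdC3KO (−0.03 to 0.37) and Htra2 had a log2 difference of −0.16 (−0.34 to 0.03), and both overlapped between genotypes. Clpp was the only one of the 40 without overlap at 4 °C, against 2.27% of all tested genes, and at 30 °C Tomm34 was the only one, against 7.29% of all.

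At 30 °C the lowest p values were those of Timm10, Timm21 and Timm29. Timm10 was 0.21 higher in AdC3KO (95% interval −0.07 to 0.49, edgeR adjusted p = 1), Timm21 was 0.10 higher (−0.09 to 0.28) and Timm29 was 0.07 higher (−0.08 to 0.23), and the libraries of all 3 overlapped between genotypes. For the interaction the lowest p values were those of Tomm34, Grpel1 and Pam16. The cold response of Tomm34 differed by −0.21 between AdC3KO and WT (95% interval −0.51 to 0.09, edgeR adjusted p = 1). Those of Grpel1 and Pam16 differed by 0.21 (−0.12 to 0.54) and 0.23 (−0.15 to 0.61).

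Across the 40 genes the cold response of AdC3KO differed from that of WT by at most 0.23 on the log2 scale, with a median size of 0.08. The responses of the genotypes, which share no library, had a Pearson correlation of 0.99 over the 40 genes. That correlation is across genes, which are not independent replicates. It was not computed over all tested genes, so its size cannot be read as particular to these 40.

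**Figure D5:**
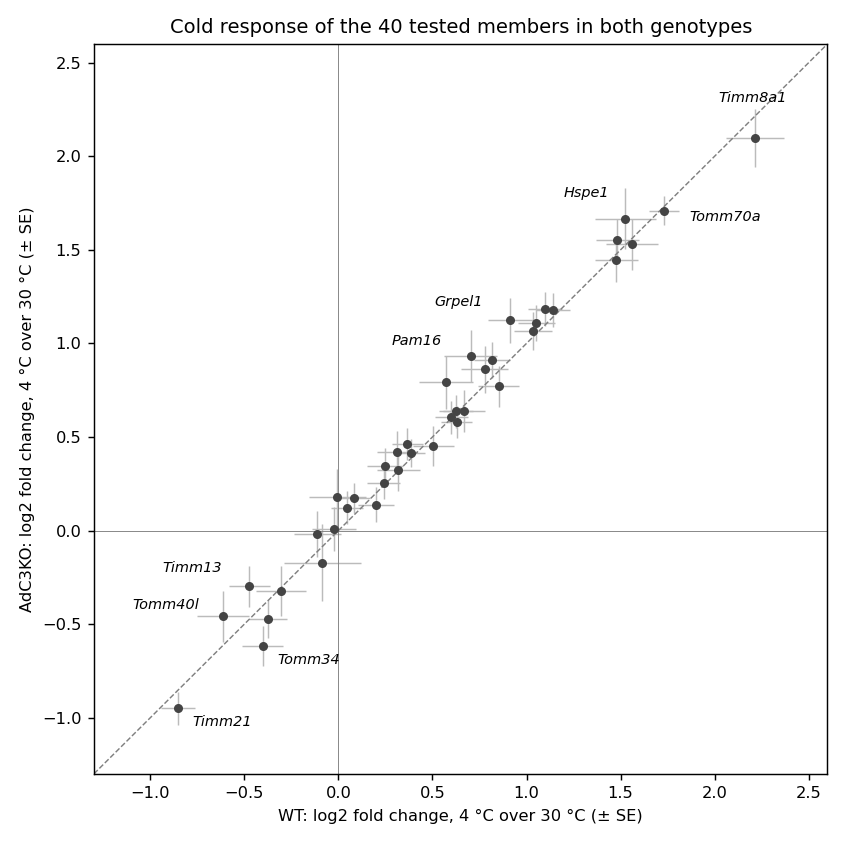
Log2 fold change at 4 °C over 30 °C (± SE) in AdC3KO (y axis) and WT (x axis), 1 point for each of the 40 tested genes, with the dashed line at equal values. Points run along the line from Timm21 to Timm8a1, and none is further from it than a difference of 0.23.

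Some calls near the threshold rested on single libraries. In AdC3KO the call of Timm13 was lost without AdC3KO replicate 1 (log2 fold change −0.24) or 2 (−0.23) at 4 °C, or AdC3KO replicate 2 (−0.27) or 3 (−0.23) at 30 °C. That of Timm44 was lost without AdC3KO replicate 3 at 4 °C (0.23) or replicate 1 at 30 °C (0.19), and that of Tomm22 without AdC3KO replicate 4 at 4 °C (0.29) or replicate 1 at 30 °C (0.19). That of Dnajc19 was lost, at log2 fold changes of −0.33 to −0.19, without AdC3KO replicate 1, 2 or 4 or any WT replicate at 4 °C, or AdC3KO replicate 2 or 3 or WT replicate 3 at 30 °C. Clpp gained a call without AdC3KO replicate 2 at 4 °C (0.22) or replicate 3 at 30 °C (0.25).

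In WT the call of Pmpcb was lost without WT replicate 1 (log2 fold change 0.25) or 3 (0.28) at 4 °C or replicate 3 at 30 °C (0.25). Timm50 lost its call without WT replicate 3 (0.25) or 4 (0.21) at 4 °C or replicate 1 at 30 °C (0.17), and Tomm22 without WT replicate 1 at 4 °C (0.28) or replicate 1 (0.25) or 3 (0.30) at 30 °C. Timm44 lost it, at 0.18 to 0.25, without AdC3KO replicate 1 or 4 or WT replicate 1 or 3 at 4 °C, or WT replicate 1 or 2 at 30 °C. Clpx gained a call without WT replicate 2 or 4 at 4 °C (0.25 each), and Dnajc19 gained one, at −0.39 to −0.31, without AdC3KO replicate 3 or WT replicate 1 at 4 °C, or AdC3KO replicate 1 or 3 or WT replicate 1 at 30 °C. The other members called in WT kept their calls in every fit that left out 1 library.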

How the data were processed

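RNA was measured by sequencing in 14 BAT libraries in 4 groups, set by the genotype and temperature labels. Per the series' design text, the authors trimmed reads with Trimmomatic and ran FastQC, used STAR for alignment to GRCm38/mm10 and counted reads per gene with HTSeq. The deposited values are whole-number counts per Ensembl gene, not normalised. The sources used here give no versions, annotation release or strand setting. Reads outside any gene made up 5.95% to 8.19% of a library and reads on more than 1 gene 5.53% to 6.03%. The 5 summary lines of the table that hold these entered no library size or test. Exact Ensembl identifiers gave symbols to 55144 of 55471 genes.

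Counts were fitted with edgeR 4.0.16 in R 4.3.3, as 1 quasi-likelihood model of the 4 group means over all libraries. Genes were kept by filterByExpr at a minimum count of 10, and TMM factors were 0.822 to 0.954 at 4 °C and 1.11 to 1.21 at 30 °C. The common biological coefficient of variation was 0.20, and the fit was tested on simulated data. Within each group, libraries varied beyond sampling noise (chi-square per degree of freedom 16.9 to 83.5), so each library counted once. Ratios of 2 genes had 0.5 count added to each. Near-identical copies were searched with BLAST 2.17.0 over at least 200 bases. Alternatives were DESeq2 1.42.0, other scalings and filters, fits of the compared groups, a replicate block and leaving out libraries. Genes named with values in every library were the 8 largest rises and 4 largest falls called in WT, the members of the 8 pairs and the 3 with the lowest p in each genotype comparison. Partners named were the 3 largest rises and falls called in WT. The members, lists, pairs, motifs and tests were chosen with earlier results of these data known.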

Additional observations from a re-analysis of the deposited data

Results flagged for a closer look

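The 80 groups of 4 libraries at 4 °C (40 genes in AdC3KO and in WT) were searched for a library that stands apart from the other 3, by the gap to its nearest neighbour over the range of the group. There were 5 such values, where chance gives about 1 in 20 groups. In AdC3KO at 4 °C, Tomm70a was at 291 CPM in replicate 2, against 276 to 277 CPM in the others, and Hspa9 was at 2371 CPM in replicate 2, against 2493 to 2512 CPM. In WT at 4 °C, replicate 1 was high for Tomm20 (177 CPM, against 151 to 152 CPM in the others), Tomm40 (107 CPM, against 83.2 to 87.2 CPM) and Chchd4 (79.3 CPM, against 69.4 to 71.0 CPM). Each of these genes was called in both genotypes under every fit that left out 1 library.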

How the results depend on the processing

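The counts of members called at 4 °C over 30 °C were 28 higher and 5 lower in AdC3KO and 27 higher and 5 lower in WT with DESeq2. Over all 15949 genes DESeq2 called 5115 higher and 5066 lower in AdC3KO, and 5003 higher and 4918 lower in WT. With no filter on low counts (43 members tested), and also with a filter at 5 CPM (39 tested), 25 members were higher and 6 lower in AdC3KO. In WT 23 were higher and 6 lower with either filter setting. Over all 30606 genes with no filter, 4316 were higher and 5764 lower in AdC3KO, and 4274 higher and 5433 lower in WT. Over all 10549 genes at 5 CPM, 3779 were higher and 3847 lower in AdC3KO, and 3786 higher and 3752 lower in WT. Leaving out each library in turn gave 25 to 28 members higher and 4 to 6 lower in AdC3KO, and 24 to 28 higher and 5 to 6 lower in WT. It gave 0 members between the genotypes and in the interaction. Over all genes those fits called 4534 to 5164 higher and 4683 to 5154 lower at 4 °C in AdC3KO. In WT they called 4513 to 4880 higher and 4425 to 4994 lower. Without the 5 libraries with muscle transcripts, 3 members were lower in WT. The replicate numbers do not pair the samples (correlations of same-numbered deviations −0.39 to 0.08). The fit with a replicate block called 27 members higher and 5 lower in AdC3KO and 26 higher and 5 lower in WT, and none in another comparison. Over all genes the block fit called 4772 higher and 5017 lower in AdC3KO, and 4684 higher and 4753 lower in WT. Timm44 in WT reversed with upper-quartile scaling (−0.00214). Hspd1 over Hspe1 was not called in WT alone (−0.47, exact permutation test, adjusted p = 0.0762). The shift of Pmpca over Pmpcb was 0.15 without the muscle libraries, against 0.05 with all libraries. The cause of these changes was not tested. Leaving out each library in turn, pair shifts were 0.90 to 0.97 (Timm17a over Timm17b), 1.14 to 1.25 (Tomm40 over Tomm40l), 1.38 to 1.58 (Timm8a1 over Timm8b), 0.49 to 0.59 (Grpel1 over Grpel2), 0.58 to 0.66 (Afg3l2 over Spg7), −0.56 to −0.46 (Hspd1 over Hspe1), 0.02 to 0.07 (Pmpca over Pmpcb) and −0.01 to 0.06 (Clpx over Clpp). Over all genes the AdC3KO calls against WT at 4 °C, 7 higher and 1 lower, became 14 and 7 with DESeq2, 11 and 1 with no filter, 4 and 1 at 5 CPM or in the compared groups alone, and 2 and 1 without the muscle libraries, with 2 lower on leaving out WT replicate 1 at 4 °C. At 30 °C, 6 higher and 1 lower became 5 and 5 in the compared groups alone, 3 and 1 at 5 CPM or without WT replicate 1 or 3, and 1 and 1 without the muscle libraries. In AdC3KO 3279 genes were lower at 4 °C without the muscle libraries.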

Other observations

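Some other sets of nuclear genes for mitochondrial proteins were also read between the genotypes. No gene of 38 complex I subunits, 77 mitochondrial ribosomal proteins or 30 import partners passed the test between AdC3KO and WT at either temperature or in the interaction. The interaction estimates of the 38 complex I subunit genes lay on 1 side of 0, from 0.03 to 0.33 with a median of 0.17 on the log2 scale, while those of the 40 tested import and quality control genes had a median of 0.03. Skeletal muscle markers had a median interaction of 4.04 over 11 tested genes, none of them called, and their part in the complex I values was not tested.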
